A study of Mus musculus with 6 samples.

Results

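The genes described here are 8 receptor chains of the common gamma chain and gp130 cytokine families, *Il2rg*, *Il2rb*, *Il7r*, *Il21r*, *Il9r*, *Il6st*, *Il6ra* and *Il27ra*, with the receptor-bound kinases *Jak1* and *Jak3*. They were taken by gene symbol, and all 10 were found among the 14744 genes measured. RNA was sequenced from T follicular helper (Tfh) cells, the CD4+ cells that assist B cells in the germinal center reaction, in 3 WT libraries and 3 libraries labelled Bach2-cKO. The comparison asks how the transcriptome of Tfh cells differs when *Bach2*, which encodes a transcriptional repressor, is deleted in T cells. Cells sorted as CD4+B220-CD44+PD-1+CXCR5+ came from the mesenteric lymph nodes (MLNs), between 10000 and 30000 cells a sample. The mice are labelled C57BL/6, for which the study's methods give a C57BL/6J background, and were 2 to 3 months old. The deleted group was Bach2fl/fl Cd4-cre. The control group is labelled WT, a name the study's mouse comparisons use for Cd4-Cre littermates, and whether the sequenced WT mice carried the Cre is not given in the sources used here. Cd4-cre is active in the thymus and so also acts in T cells of the CD8 lineage and in regulatory T cells. The labels do not say that replicates are separate animals, so p-values measure the spread between these samples, which may be technical.

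Cytokine receptors of both families have no kinase of their own and signal through bound JAK kinases, which phosphorylate STAT transcription factors. The common gamma chain is shared by the receptors for IL-2, IL-4, IL-7, IL-9, IL-15 and IL-21 and binds JAK3, while its partner chains bind JAK1. The gp130 chain is shared by the receptors for IL-6, IL-27 and related cytokines and also works through JAK1. In CD4+ T cells IL-6, IL-21 and STAT3 favor the Tfh program, while IL-2 and STAT5 restrain it.

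The measured quantity is the normalized read count, which is the reads of a gene divided by a size factor of the library. These values summed to 7809702, 7387316 and 8135325 in WT replicates 1, 2 and 3, and to 7456435, 7362290 and 7361229 in replicates 1, 2 and 3 labelled Bach2-cKO. In each library 100% of the values were whole multiples of 1 step, within 0.01 of a step. Division by the step gave WT replicate 2 a depth of 6585742 reads and WT replicate 3 one of 7823717, and replicates 1, 2 and 3 labelled Bach2-cKO depths of 5045131, 10987752 and 7197242. The step of WT replicate 1, 1.00933, was too near 1 for the rule by which recovered reads were accepted, so that library stayed out of the count tests. WT replicate 1 also stood apart in that only 11648 genes were detected above 0, where the remaining libraries had 13111 to 13567.

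Each gene was tested with limma on log2(normalized count + 1), a scale that understates the change of low genes, over the 11296 genes with at least 10 in at least 3 libraries. All 10 genes passed this filter. A gene passed the thresholds with a Benjamini-Hochberg adjusted p under 0.01 and over 2-fold change, and fold changes are given as Bach2-cKO minus WT.

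*Bach2*, the targeted gene, serves as the check of the labels. Its GRCm38 locus is chr4:32238804-32586108 on the plus strand, and it stood at 233, 222 and 105 normalized counts in WT replicates 1, 2 and 3. In replicates 1, 2 and 3 labelled Bach2-cKO it stood at 399, 763 and 591 normalized counts. The targeted gene was thus higher, not lower, in each library labelled Bach2-cKO, which goes against the label. In limma *Bach2* had a log2 fold change of 1.68 with a standard error of 0.37 (adjusted p = 0.141). Removal of a trend in transcript length and GC content lowered it to 1.10 (limma adjusted p = 0.293), or 1.23 relative to the shift of all genes. Reads per exon were not analysed here. The intronic transcript *Bach2it1* and the antisense gene *Bach2os*, which overlap *Bach2*, were at 2.02 to 67.0 and at 0 to 18.4 normalized counts. Because *Bach2* goes against the label, the group is named by its label throughout, and every direction given here is between labels.

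The labelled cell type was checked against marker genes. The 8 T cell markers, led by *Cd3d*, summed to 62525, 67128 and 85584 normalized counts in WT replicates 1, 2 and 3, and to 55952, 55186 and 62651 in the libraries labelled Bach2-cKO. The 10 Tfh markers, led by *Sh2d1a*, summed to 19970, 23518 and 32759 in the WT libraries and to 21704, 16519 and 23830 in those labelled Bach2-cKO. *Cxcr5*, which marks the gate, was at 1613, 1444 and 2039 normalized counts across the WT libraries and at 2028, 1271 and 2207 in those labelled Bach2-cKO. No marker of these lists was at 0 in any library, but single markers differed in both directions. Of the 8 T cell markers 2, *Cd3e* and *Cd28*, were lower and *Cd4* was higher without overlap of the groups, at log2 fold changes of -1.02, -0.83 and 0.49. Of the 10 Tfh markers *Icos* was lower and *Tox2* and *Bcl6* were higher without overlap, at -1.03, 1.10 and 0.74. *Cd3e*, a chain of the T cell receptor complex, was at 10732 ± 1142 and 5304 ± 805 (SD, n = 3) normalized counts, and the part of such differences in the receptor values was not tested. Over all genes tested, 14.6% were higher without overlap. The 7 markers of regulatory T cells, led by *Ikzf2*, summed to 7041, 7483 and 9511 in the WT libraries and to 7898, 6516 and 5889 in those labelled Bach2-cKO. *Ikzf2* alone stood at 4304 ± 990 and 4022 ± 1256 (SD, n = 3) normalized counts. Of the 7 markers 3, *Foxp3*, *Tnfrsf18* and *Ctla4*, were lower without overlap of the groups, as were 12.2% of all genes tested. *Foxp3*, the factor that defines regulatory T cells, was at 222, 315 and 344 normalized counts across the WT libraries and at 47.3, 140 and 91.0 in those labelled Bach2-cKO, or -1.76 on the log2 scale (limma adjusted p = 0.141). The part of regulatory T cells in the receptor values was not tested. Genes of other cells were present as well. The 9 measured B cell markers, of which *Cd74* was the most abundant, summed to 20074, 24494 and 16366 normalized counts across the WT libraries and to 8123, 17113 and 6730 in those labelled Bach2-cKO. The 10 myeloid markers, led by *Lyz2*, summed to 3350, 11888 and 5932 normalized counts across the WT libraries and to 4632, 10567 and 2886 in those labelled Bach2-cKO. The CD4+B220- gate would remove B cells and most myeloid cells, and their part in the receptor values was not tested. In bulk RNA, fewer cells of a type and less RNA per cell cannot be told apart.

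Of the 10 genes, *Il2rg* was lower and *Il6st*, *Il9r*, *Jak1* and *Jak3* were higher in every library labelled Bach2-cKO than in every WT library. For *Jak1* this was lost with TMM factors, with median rescaling and after that trend removal, and for *Il6st* and *Jak3* after trend removal. None of them passed the thresholds in limma, and neither did any of the 11296 genes tested, so the background is 0% in each direction. The smallest adjusted p over all genes was 0.141. At an unadjusted p under 0.05, limma gave 3 of the 10 genes as higher (*Il6st*, *Il9r* and *Jak3*) and 1 as lower (*Il2rg*), against 10.1% of all genes tested as higher and 10.2% as lower. Groups without overlap were seen for 4 genes higher and 1 lower, against 14.6% and 12.2% of all genes tested. The median log2 fold change of the 10 genes was 0.32, against 0.08 over all genes tested, and 6 of the 10 intervals at 95% include 0. DESeq2 on the reads of 5 libraries also gave none of the 10 genes past the thresholds, while it called 33 genes higher (0.292%) and 57 lower (0.505%). With edgeR on the same reads no gene passed, and both count tests gave the same numbers of these genes at an unadjusted p under 0.05, 3 higher and 1 lower. The shares of all genes at that level were 9.66% higher and 9.45% lower with DESeq2, and 9.55% and 8.77% with edgeR. Without WT replicate 1, limma also gave 3 of the genes as higher and 1 as lower at an unadjusted p under 0.05, against 9.79% and 9.43% of all genes. In the same 5 libraries 5 genes higher and 1 lower were without overlap, against 20.5% and 18.1% of all genes.

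**Figure D1:**
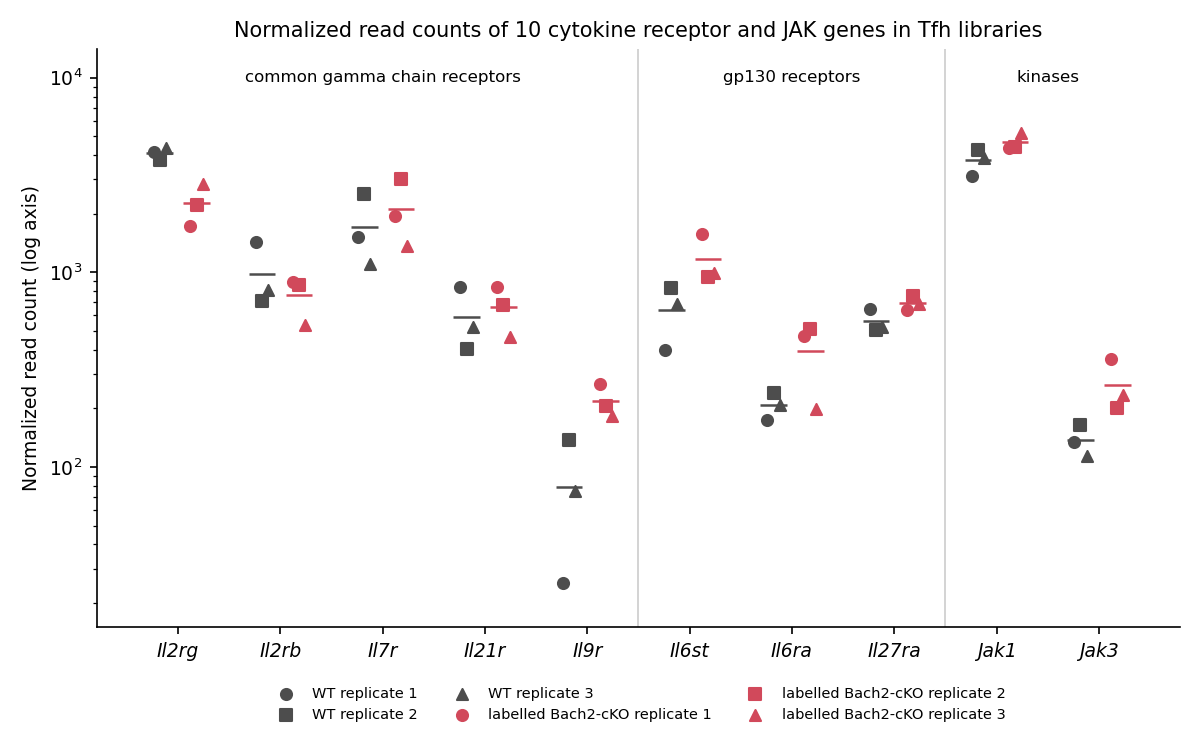
Normalized read counts of the 10 genes on a log axis, with 1 point per library, the replicate number as the shape and the group mean as a bar. *Il2rg* lies lower in the 3 libraries labelled Bach2-cKO (1729 to 2855) than in the WT libraries (3772 to 4360), and *Il9r*, *Il6st*, *Jak1* and *Jak3* lie higher without overlap.

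Levels can be set side by side between genes only per length of transcript. Per kilobase of the longest transcript, *Il2rg* had the highest level, at 2456 ± 180 (SD, n = 3) normalized counts per kilobase in the WT libraries and 1356 ± 338 (SD, n = 3) in those labelled Bach2-cKO. *Jak1* followed, at 765 ± 118 and 948 ± 101 (SD, n = 3). In the WT libraries *Il2rg* was above *Jak1* with no overlap of the ranges, while the ranges met in the libraries labelled Bach2-cKO, where 1 *Jak1* value of 1065 per kilobase exceeded the lowest *Il2rg* value of 1035. *Il7r*, *Il21r*, *Il2rb* and *Il27ra* came next in the WT libraries, at means of 485, 236, 235 and 191 per kilobase, and each neighboring pair among them overlapped. *Il6st* at 73.6, *Jak3* at 34.0, *Il6ra* at 24.1 and *Il9r* at 17.6 per kilobase were the lowest, and of these neighbors only *Il6ra* and *Il9r* overlapped. The receptor chain shared by the gamma family was thus far more abundant per kilobase than the gp130 chain in both groups. In the libraries labelled Bach2-cKO the order differed by 2 exchanges, *Il27ra* with *Il2rb* and *Il9r* with *Il6ra*.

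*Il2rg* encodes the common gamma chain itself and lies at chrX:101264378-101268255 on the minus strand. It was at 4171, 3772 and 4360 normalized counts in WT replicates 1, 2 and 3, and at 1729, 2212 and 2855 in replicates 1, 2 and 3 labelled Bach2-cKO. The WT libraries lay close together, and the highest library labelled Bach2-cKO was below the lowest WT library. The means were 4101 ± 300 and 2265 ± 565 (SD, n = 3), a ratio of 0.552, and the log2 fold change was -0.88 (standard error 0.22, 95% interval -1.36 to -0.40, limma adjusted p = 0.141). Without replicate 3 labelled Bach2-cKO, the library nearest to WT, limma gave -1.07 and an adjusted p of 0.0384, where 1.61% of all genes were higher and 2.88% lower at an adjusted p under 0.05. Over all 19 alternatives the limma, edgeR and DESeq2 adjusted p of this gene ranged from 0.00052 to 0.507, and the log2 fold change from -1.07 to -0.65. A second protein-coding gene model, *Gm20489*, overlaps *Il2rg* on the same strand and is not in the table, so reads the models share make the *Il2rg* count uncertain. The genes with the pattern most like *Il2rg* over the 6 libraries were *Diablo*, *Rab9* and *Ube2n*, at root mean square distances of 0.0403, 0.0505 and 0.0571 on the centered log2 scale.

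*Il2rb* encodes the beta chain that IL-2 and IL-15 share. It was at 1429, 711 and 814 normalized counts in WT replicates 1, 2 and 3, and at 897, 863 and 538 in replicates 1, 2 and 3 labelled Bach2-cKO. One high WT library and 1 low library labelled Bach2-cKO set the means apart, and the groups overlapped. The log2 fold change was -0.33 (95% interval -1.01 to 0.35, limma adjusted p = 0.541), and -0.03 without WT replicate 1. The 9 markers of CD8 T cells or NK cells, cells that also carry this chain, summed to 6640, 5006 and 3779 normalized counts across the WT libraries and to 1707, 4934 and 2458 in those labelled Bach2-cKO. WT replicate 1 was the highest library for both *Il2rb* and this sum, but *Nkg7*, the most abundant gene, alone gave 5536 of it there. *Prf1* and *Eomes* were also highest in that library, at 200 and 507 normalized counts. In contrast, *Cd8a*, *Cd8b1* and *Gzma* were at their lowest of the 6 libraries there, at 48.4, 127 and 107. *Klrd1* and *Ncr1* were at 0 in WT replicate 1. The CD4+ gate would remove such cells, and their part in the *Il2rb* values was not tested.

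*Il7r* encodes the IL-7 receptor alpha chain, which marks naive and memory T cells. It stood at 1511, 2531 and 1107 normalized counts in WT replicates 1, 2 and 3, and at 1949, 3017 and 1373 in replicates 1, 2 and 3 labelled Bach2-cKO. In both groups replicate 2 was the highest and replicate 3 the lowest, and the groups overlapped widely, with a log2 fold change of 0.31 (95% interval -0.46 to 1.08, limma adjusted p = 0.614) that was 0.0159 without replicate 2 labelled Bach2-cKO. *Il21r* encodes the receptor for IL-21, the cytokine that Tfh cells release and also respond to. It stood at 842, 404 and 525 normalized counts across the WT libraries and at 838, 679 and 463 in those labelled Bach2-cKO. Replicate 1 was the highest in both groups, the groups overlapped, and the log2 fold change was 0.19 (95% interval -0.52 to 0.90, limma adjusted p = 0.755), with -0.05 without WT replicate 2 and -0.0059 without replicate 1 labelled Bach2-cKO.

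*Il9r* encodes the IL-9 receptor alpha chain. In WT replicates 1, 2 and 3 it was at 25.2, 137 and 74.9 normalized counts, and in replicates 1, 2 and 3 labelled Bach2-cKO at 268, 206 and 182. Every library labelled Bach2-cKO was above every WT library, and WT replicate 1 was far below the rest. The means were 79.0 ± 55.9 and 219 ± 44.0 (SD, n = 3), a ratio of 2.77, and the log2 fold change was 1.74 (standard error 0.56, 95% interval 0.49 to 2.99, limma adjusted p = 0.159). Without WT replicate 1 it was 1.08 (limma adjusted p = 0.171), so that 1 library sets much of its size, and the adjusted p over the alternatives ranged from 0.00477 to 0.512.

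*Il6st* encodes gp130 and lies at chr13:112464070-112510086 on the plus strand. It was at 400, 832 and 685 normalized counts in WT replicates 1, 2 and 3, and at 1565, 950 and 988 in replicates 1, 2 and 3 labelled Bach2-cKO. The lowest library labelled Bach2-cKO stood above the highest WT library, and WT replicate 1 and replicate 1 labelled Bach2-cKO lay at the ends. The means were 639 ± 220 and 1168 ± 345 (SD, n = 3), a ratio of 1.83, and the log2 fold change was 0.89 (standard error 0.31, 95% interval 0.21 to 1.58, limma adjusted p = 0.172), or 0.59 without WT replicate 1.

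*Il6ra* encodes the chain that binds IL-6 and hands it to gp130. It was at 175, 241 and 208 normalized counts in WT replicates 1, 2 and 3, and at 470, 509 and 199 in replicates 1, 2 and 3 labelled Bach2-cKO. Replicates 1 and 2 labelled Bach2-cKO were above all WT libraries, while replicate 3 lay among them. The log2 fold change was 0.81 (95% interval -0.02 to 1.65, limma adjusted p = 0.255), and without that replicate it was 1.24 (limma adjusted p = 0.0478). The adjusted p over the alternatives ranged from 0.0022 to 0.796. An antisense gene, *Gm42809*, overlaps *Il6ra*, and since the sources used here do not say whether reads were counted by strand, its reads may be part of the *Il6ra* count. *Il27ra* encodes the IL-27 receptor chain that pairs with gp130, and was at 650, 507 and 524 normalized counts across the WT libraries and at 638, 756 and 691 in those labelled Bach2-cKO. Only WT replicate 1 reached into the other group, and the log2 fold change was 0.32 (95% interval -0.16 to 0.80, limma adjusted p = 0.402). *Palm3*, which overlaps *Il27ra* on the other strand, was at 0 to 25.1 normalized counts.

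Markers of naive or memory T cells, which carry *Il7r*, *Il6ra* and *Il6st*, had a higher sum in each library labelled Bach2-cKO than in each WT library. The 8 markers, of which *Tcf7* was the most abundant, summed to 11814, 11999 and 9675 normalized counts in WT replicates 1, 2 and 3, and to 15173, 14273 and 12820 in the libraries labelled Bach2-cKO. Within the list only *Tcf7* (means of 5165 in WT and 7346 in libraries labelled Bach2-cKO) and *Satb1* (507 and 1733) were higher without overlap. None was lower without overlap, and the shares of all genes tested were 14.6% and 12.2%. *Satb1* had a log2 fold change of 1.76 and *Ccr7* one of -1.14, so the genes of this list did not go one way. The CD44+PD-1+CXCR5+ gate would remove naive cells, and the part of naive or memory cells in the receptor values was not tested.

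*Jak1* encodes the kinase that both families use. It was at 3130, 4269 and 3865 normalized counts in WT replicates 1, 2 and 3, and at 4339, 4398 and 5227 in replicates 1, 2 and 3 labelled Bach2-cKO. The groups did not overlap, by a narrow gap between 4269 and 4339, and the log2 fold change was 0.32 (95% interval -0.12 to 0.75, limma adjusted p = 0.362), or 0.19 without WT replicate 1. *Jak3* encodes the kinase bound to the common gamma chain, at chr8:71676296-71690575 on the plus strand. It stood at 134, 165 and 114 normalized counts across the WT libraries and at 359, 202 and 233 in those labelled Bach2-cKO. All 3 libraries labelled Bach2-cKO were above the WT libraries, with replicate 1 the highest. The means were 138 ± 25.4 and 265 ± 83.1 (SD, n = 3), a ratio of 1.92, and the log2 fold change was 0.91 (standard error 0.33, 95% interval 0.17 to 1.65, limma adjusted p = 0.185). The kinase and the receptor chain that binds it therefore had opposite signs. *Insl3*, which overlaps *Jak3* on the same strand, was at 0 to 8.18 normalized counts, and *Raver2*, on the other strand of *Jak1*, at 22.4 to 51.7.

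The libraries also differed in how values varied with the length of the transcript. Across 11263 genes, which are not independent replicates, longer transcripts tended to have higher log2 fold changes, with a Spearman's rho of 0.32. *Il2rg* has a short transcript of 1.67 kilobases, while those of *Il6st* and *Il6ra* are 8.68 and 8.64 kilobases long. When this dependence on length and GC content was fitted and subtracted per library, the median log2 fold change of all genes moved by -0.12. Relative to that shift *Il9r* was then at 1.5, *Il2rg* at -0.53, *Il6st* at 0.50, *Jak3* at 0.38 and *Il6ra* at 0.31, all closer to 0 than before. *Jak1*, *Il27ra* and *Il21r* came to 0.12, 0.15 and 0.14 on the same scale, while *Il2rb* and *Il7r* moved away from 0, to -0.68 and 0.50. Without the trend, 1 gene was higher and 2 were lower at an unadjusted p under 0.05 in limma, *Il9r* on one side and *Il2rg* and *Il2rb* on the other, against 5.1% and 9.85% of all genes. Groups without overlap were then seen for 1 gene higher and 2 lower, against 8.86% and 12.4% of all genes. What gave the libraries their trend was not tested.

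**Figure D2:**
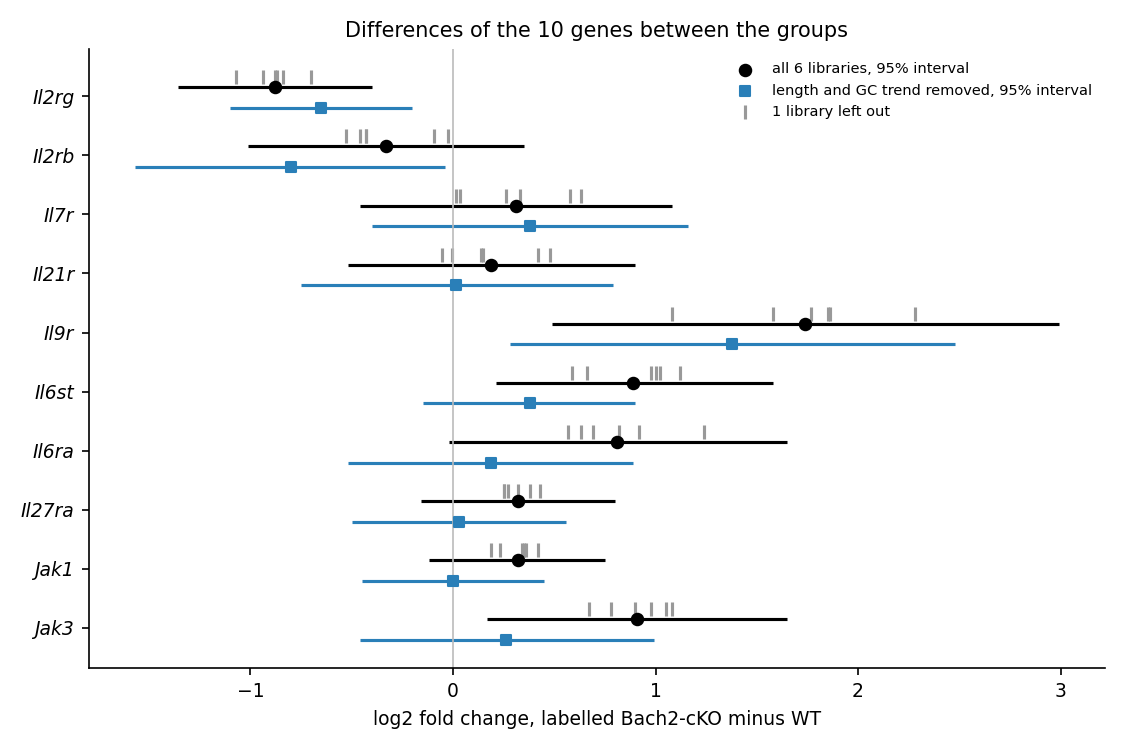
Log2 fold changes (libraries labelled Bach2-cKO minus WT) of the 10 genes with 95% intervals, from all 6 libraries in black and after trend removal (transcript length and GC content) in blue, not shifted by the median, with gray ticks for each fit without 1 library. The *Il2rg* interval lies below 0 and the *Il9r* interval above 0 in both fits, while those of *Il6st* and *Jak3* include 0 once the trend is removed.

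Library weights, estimated by limma from the same values, gave WT replicate 1 a weight of 0.206 and replicates 2 and 3 labelled Bach2-cKO weights of 5.54 and 0.421. With these weights *Il6ra* (log2 fold change 1.14, limma adjusted p = 0.0022) and *Il9r* (1.33, limma adjusted p = 0.00477) passed both thresholds, and *Il2rg* (-0.94, limma adjusted p = 0.00052) stayed under 2-fold. In that fit 4.97% of all genes were past the thresholds as higher and 5.02% as lower. At an unadjusted p under 0.05 it gave 7 of the 10 genes as higher and 1 as lower, where 24.3% and 22.8% of all genes stood. The weights also moved *Il7r*, *Il27ra* and *Il21r* to log2 fold changes of 0.95, 0.49 and 0.44, and *Il6st* and *Jak1* to 0.52 and 0.18. Replicate 2 labelled Bach2-cKO had the highest weight of the 6 libraries.

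Ratios of chains within a library are free of library scaling. They were compared for 7 pairs with a two-sided exact permutation test, in which 3 libraries against 3 cannot give a p under 0.1. The log2 ratio of *Il9r* to *Il2rg* was -7.31, -4.77 and -5.85 in WT replicates 1, 2 and 3, and -2.69, -3.42 and -3.96 in replicates 1, 2 and 3 labelled Bach2-cKO. The groups did not overlap, and the difference of 2.62 had the smallest p possible (exact p = 0.1, adjusted over the 7 ratios 0.28). It was 1.95 without WT replicate 1 and 3.22 without WT replicate 2. *Il7r* to *Il2rg* and *Il21r* to *Il2rg* differed by 1.19 and 1.07 in the same direction, with overlap of the groups (exact p = 0.2 for each, adjusted 0.28). *Il2rb* to *Il2rg* differed by 0.55 (exact p = 0.2, adjusted 0.28). Without replicate 1 labelled Bach2-cKO the differences of *Il21r* and *Il2rb* were 0.70 and 0.24. After trend removal this last difference turned to -0.15, and that of *Il21r* to *Il2rg* was 0.66. These 4 ratios share *Il2rg*, which had a log2 fold change of -0.88 by itself, so a partner chain with no difference also gives a higher ratio.

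In the gp130 family the log2 ratio of *Il6ra* to *Il6st* was -1.19, -1.78 and -1.72 in WT replicates 1, 2 and 3, and -1.73, -0.90 and -2.30 in those labelled Bach2-cKO. The group means were nearly equal, with a difference of -0.08 (exact p = 0.9, adjusted 0.9) that turned to 0.25 without replicate 3 labelled Bach2-cKO and 0.10 without WT replicate 1, and was -0.19 after trend removal. *Il27ra* to *Il6st* differed by -0.58, with overlap (exact p = 0.5, adjusted 0.583), and by -0.16 without WT replicate 1 and -0.35 after trend removal. *Jak1* to *Jak3* had log2 ratios of 4.53, 4.69 and 5.07 in the WT libraries and 3.59, 4.44 and 4.48 in those labelled Bach2-cKO. Every library labelled Bach2-cKO was below every WT library in this ratio, by a difference of -0.59 (exact p = 0.1, adjusted 0.28) that was -0.30 without replicate 1 labelled Bach2-cKO and -0.26 after trend removal.

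**Figure D3:**
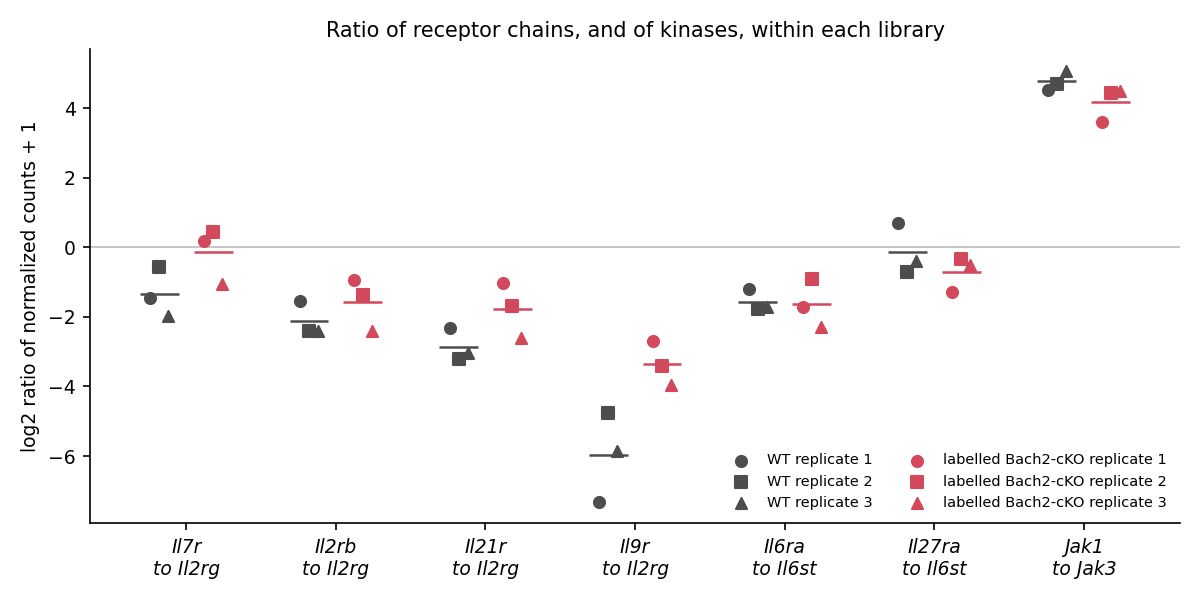
Log2 ratio of normalized counts + 1 for 7 pairs of genes, with 1 point per library and the group mean as a bar. The ratios of *Il9r* to *Il2rg* and of *Jak1* to *Jak3* do not overlap between the groups, and the other 5 do.

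Promoters are shown for the 5 genes whose groups did not overlap, *Il2rg* as the lower one and *Il9r*, *Il6st*, *Jak1* and *Jak3* as the higher ones, since these set the groups apart. RefSeq promoters of GRCm38.p6, with 250 bases before the start and 50 after it, were matched for 8 of the 10 genes (not for *Il2rb* and *Il27ra*). Capitals mark GGGCGG on the printed strand or CCGCCC for the other strand.
*Il2rg*, chrX:101268206-101268505, minus strand: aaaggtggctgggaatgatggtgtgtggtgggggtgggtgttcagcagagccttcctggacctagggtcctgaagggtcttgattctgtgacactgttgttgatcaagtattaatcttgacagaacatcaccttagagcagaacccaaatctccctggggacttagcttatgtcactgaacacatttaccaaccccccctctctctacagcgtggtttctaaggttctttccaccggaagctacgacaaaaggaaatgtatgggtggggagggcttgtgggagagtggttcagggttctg
*Il9r*, chr11:32200230-32200529, minus strand: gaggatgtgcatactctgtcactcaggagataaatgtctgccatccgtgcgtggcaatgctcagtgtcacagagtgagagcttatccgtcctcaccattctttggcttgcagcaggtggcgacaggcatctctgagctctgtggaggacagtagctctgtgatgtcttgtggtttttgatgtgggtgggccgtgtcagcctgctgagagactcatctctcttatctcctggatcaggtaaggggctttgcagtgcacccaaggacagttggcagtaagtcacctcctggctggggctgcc
*Il6st*, chr13:112463820-112464119, plus strand: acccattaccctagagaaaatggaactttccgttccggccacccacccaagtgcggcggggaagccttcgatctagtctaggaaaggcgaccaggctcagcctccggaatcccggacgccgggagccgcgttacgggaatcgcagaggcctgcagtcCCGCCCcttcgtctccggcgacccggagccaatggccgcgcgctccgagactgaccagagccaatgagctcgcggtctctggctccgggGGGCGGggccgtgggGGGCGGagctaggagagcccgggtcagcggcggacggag
*Jak1*, chr4:101265174-101265473, minus strand: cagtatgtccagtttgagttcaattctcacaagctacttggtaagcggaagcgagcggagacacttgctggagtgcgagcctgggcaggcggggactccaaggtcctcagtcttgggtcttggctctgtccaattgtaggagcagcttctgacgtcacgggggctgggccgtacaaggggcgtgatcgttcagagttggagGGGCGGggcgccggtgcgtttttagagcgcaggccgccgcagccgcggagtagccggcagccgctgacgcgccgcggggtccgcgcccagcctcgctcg
*Jak3*, chr8:71676133-71676432, plus strand: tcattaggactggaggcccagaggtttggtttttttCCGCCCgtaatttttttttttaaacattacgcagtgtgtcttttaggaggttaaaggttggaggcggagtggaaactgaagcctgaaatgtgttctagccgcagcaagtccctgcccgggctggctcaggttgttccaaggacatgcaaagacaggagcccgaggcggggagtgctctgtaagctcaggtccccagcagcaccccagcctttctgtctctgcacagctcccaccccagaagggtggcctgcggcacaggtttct
The *Il6st* promoter held 3 such matches and 33 CG pairs, those of *Jak1* and *Jak3* 1 match each with 29 and 9 CG pairs, and those of *Il2rg* and *Il9r* no match with 3 and 5 CG pairs, where the median of all 32851 promoters was 7. GGGCGG on either strand was found in 4 of the 8 promoters (*Il21r*, *Il6st*, *Jak1* and *Jak3*) and in 35.7% of all promoters. TTCNNNGAA, the pattern of STAT binding sites, which reads the same on both strands, was found in that of *Il7r* only and in 8.3% of all promoters. TGAGTCA or TGACTCA, each the other strand of the other and the core letters of AP-1 and Bach binding sites, was in none of the 8 promoters and in 5.2% of all. None of the 8 promoters held more than 1 of these 3 patterns, and a match or its absence describes only the letters in this window.

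The other genes of the pathway were taken as 9 lists of ligands, receptors, kinases, STAT factors, inhibitors and target genes. Of 66 genes listed, 60 were in the table and 56 were tested, and none passed the thresholds in limma. *Il6*, a gp130 ligand, reached the filter only through the libraries labelled Bach2-cKO, where it was high. It is left out of the counts of higher and lower genes in this paragraph. Of the remaining 55 genes, 9 were higher and 6 lower at an unadjusted p under 0.05, against the 10.1% and 10.2% of all genes tested. The 9 became 6 without replicate 1 and 5 without replicate 2 labelled Bach2-cKO, where 4.12% and 4.75% of all genes were higher. The 6 lower became 4 in each of these fits, where 5.3% and 5.86% of all genes were lower. Leaving out any 1 library gave from 5 to 13 higher and 4 to 8 lower. The shares of all genes then ran from 4.12% to 13.2% and from 5.3% to 14.0%. These shares leave out genes that reached the filter through 1 group alone. After trend removal 6 were higher and 4 lower, against 4.98% and 9.79% of all genes on that basis. Among the ligands of the gamma family (4 tested, median log2 fold change 0.40), *Il4*, the Th2 cytokine that Tfh cells give to B cells, was at 656, 911 and 1411 normalized counts across the WT libraries and at 2038, 2977 and 2303 in those labelled Bach2-cKO. These values did not overlap, and its log2 fold change was 1.35 (limma adjusted p = 0.141). *Il2* was at 40.3 ± 26.5 and 89.7 ± 28.3 (SD, n = 3) normalized counts with overlap, and *Il15* had 0 in WT replicate 1.

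Among 5 related receptor chains (median -0.17), *Il13ra1*, which binds IL-13 and pairs with the IL-4 receptor chain, was at 176, 151 and 80.1 normalized counts across the WT libraries and at 57.6, 14.1 and 17.4 in those labelled Bach2-cKO. It was the only gene of that list at an unadjusted p under 0.05 in limma (log2 fold change -2.36, adjusted p = 0.142). *Crlf2*, the TSLP receptor chain that pairs with *Il7r*, had a log2 fold change of 0.63, and *Il4ra* had 0.49, which was 0.0155 without replicate 2 labelled Bach2-cKO and turned to -0.20 after trend removal, or -0.08 relative to the shift of all genes. Of the 4 gp130 ligands tested, *Ebi3* was at 93.3 ± 47.4 normalized counts in WT and 55.8 ± 39.4 in libraries labelled Bach2-cKO (SD, n = 3). These groups overlapped, and its log2 fold change was -0.78. *Il6* was at 0, 2.24 and 0 normalized counts across the WT libraries and at 13.3, 34.2 and 12.3 in those labelled Bach2-cKO, too few in WT for a fold. *Lif* and *Osm* had log2 fold changes of 1.33 and 1.04, and that of *Lif* was 0.59 without WT replicate 3. Of the 3 other gp130 family receptors tested, *Il11ra1* was at 0, 20.2 and 15.6 normalized counts across the WT libraries and at 53.2, 79.1 and 23.5 in those labelled Bach2-cKO, while *Lifr* and *Il12rb2* averaged 13.7 and 10.7 normalized counts in the WT libraries, near the filter.

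Downstream of the receptors, the kinase *Tyk2* was at 59.6, 223 and 177 normalized counts across the WT libraries and at 470, 363 and 226 in those labelled Bach2-cKO, or 1.34 on the log2 scale (limma adjusted p = 0.185) and 0.76 without WT replicate 1. *Jak2* was at 1694 ± 562 and 1806 ± 168 (SD, n = 3), with overlap. Of the 7 STAT genes (median 0.50), 6 had a positive log2 fold change, and *Stat2* and *Stat5b*, at an unadjusted p under 0.05 in limma, had 1.45 and 0.74. The groups of both genes did not overlap, and *Stat2* was at 0.87 without WT replicate 1. *Stat4* was the STAT gene with a negative value, -0.44. Among 14 inhibitors of JAK-STAT signaling (median 0.15), *Pias1*, a SUMO ligase that binds activated STAT proteins, was at 1394, 960 and 1002 normalized counts across the WT libraries and at 418, 516 and 610 in those labelled Bach2-cKO, with -1.12 on the log2 scale (limma adjusted p = 0.141). *Ptpn2*, a phosphatase that acts on JAK kinases and STAT proteins, was also lower at an unadjusted p under 0.05 in limma, without overlap, at 1799 ± 152 and 1156 ± 263 (SD, n = 3) normalized counts, or -0.66 on the log2 scale (limma adjusted p = 0.162). The feedback inhibitors *Socs3* and *Socs7* had 1.19 and 1.11, or 0.61 and 0.70 without WT replicate 1, and did not reach an unadjusted p under 0.05. After trend removal, relative to the shift of all genes, *Tyk2* was at 0.78, *Stat5b* at 0.30 and *Socs7* at 0.49.

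Target genes of the 2 STAT arms differed in sign within each list. Among 12 STAT5 target genes (median 0.32), *Gzmb* and *Pim1* were higher at an unadjusted p under 0.05 in limma and none was lower. *Pim1*, a survival kinase, was at 93.9, 133 and 123 normalized counts across the WT libraries and at 381, 521 and 180 in those labelled Bach2-cKO, with 1.51 on the log2 scale (limma adjusted p = 0.142). The granzyme *Gzmb* was at 2.02 normalized counts in WT replicate 1, and its log2 fold change of 3.05 became 1.62 without that library. *Myc* had -1.12, which rested on a value of 959 in WT replicate 1 and was -0.43 without it. Among 12 STAT3 target genes (median -0.16), *Pim1* and *Bcl6* were higher and *Il10*, *Bcl3* and *Batf* lower at an unadjusted p under 0.05 in limma. *Il10* was at 262, 61.7 and 155 normalized counts across the WT libraries and at 59.1, 54.3 and 43.0 in those labelled Bach2-cKO, without overlap. Its log2 fold change of -1.38 was -0.91 without WT replicate 1 and, relative to the shift of all genes, -0.84 after trend removal.

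**Figure D4:**
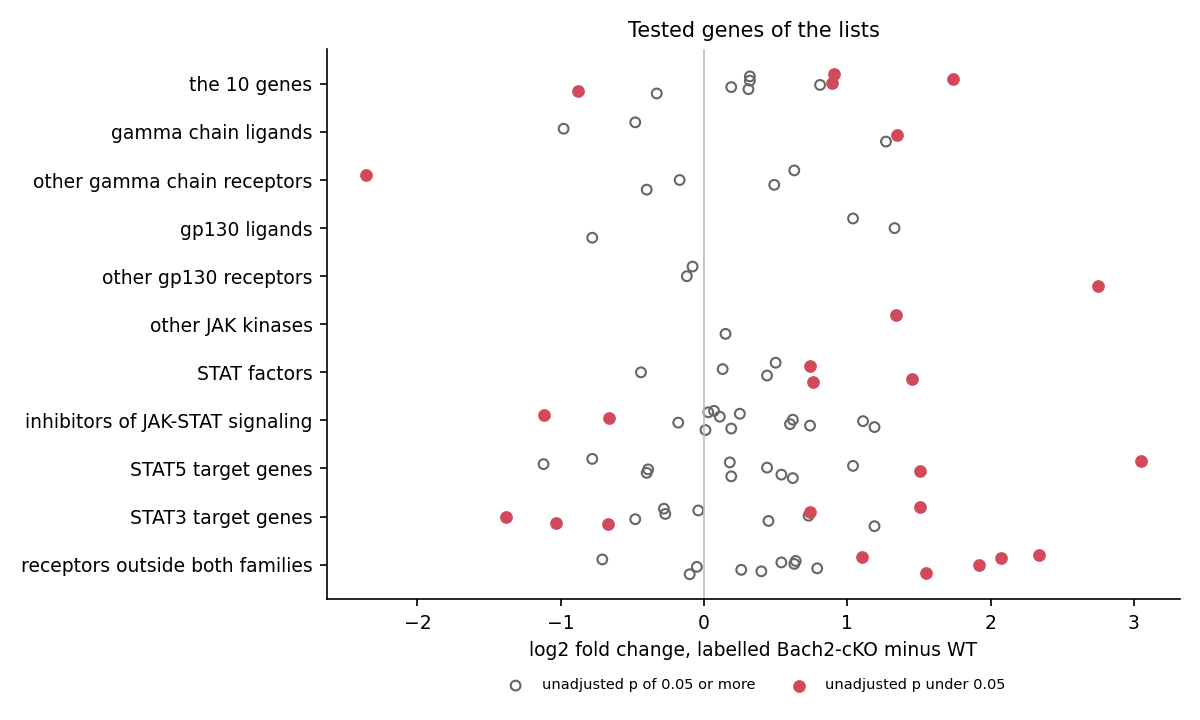
Log2 fold changes (libraries labelled Bach2-cKO minus WT) of the tested genes of each pathway list and of the receptors outside both families, 1 point per gene, filled where the unadjusted limma p is under 0.05. No gene passed the thresholds, genes in more than 1 list are drawn in each, and *Il6* is left out because it reached the filter only through the libraries labelled Bach2-cKO.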

How the data were processed

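RNA-seq libraries of sorted Tfh cells were analysed from the normalized read counts, a signal that the authors deposited for 14744 genes. Per the study's methods, reads were aligned with Tophat2 and counted with HTSeq, while the submitters' processing notes name STAR 2.5.2b, R 3.5.1, DESeq2 1.20.0 and the builds GRCm38 and mm10. Whether the counting used strand is not given in the sources used here.

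The main test was limma 3.58.1 under R 4.3.3 on log2(value + 1) (trended variance, all 6 libraries, no covariate) over genes with at least 10 in at least 3 libraries, with Benjamini-Hochberg adjustment. The raw count model of the study's methods could not be the main test on normalized values. Whole reads were recovered for 5 libraries, from 5045131 to 10987752 reads, by dividing each value by its library's step, and tested with edgeR 4.0.16 and with DESeq2 1.42.0 without independent filtering. WT replicate 1 was left out there. At this depth the spread between libraries, not counting error, limits the precision of genes with counts like those of *Il2rg* or *Jak1*, and PCR copies were not told apart. Chain ratios were compared by exact permutation. Transcript lengths, GC content and loci are from the longest GENCODE M21 transcript on GRCm38, with 14328 genes matched by symbol and 363 by an older symbol. The trend in length and GC content was a spline with 4 degrees of freedom per term.

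The alternatives for the 10 genes were pseudocounts of 0.5 and 5, other filters, normalizations and variance models, library weights, a replicate block, the trend removal, the count tests and leaving out each library. For *Bach2* and the other pathway genes, and for overlap after trend removal, they were chosen after seeing the data, as was counting the pathway lists without *Il6* and without the receptors outside both families. The limma fit of 6 libraries and the edgeR and DESeq2 fits of 5 were tested on simulated counts. The trend removal, the library weights and the replicate block were not part of that test. The genes and lists were chosen with earlier results of these data known. Named were the 10 genes, *Bach2*, in each pathway list the genes past the thresholds or else the 3 with the largest absolute log2 fold change, the most abundant marker of each list, and the 3 genes nearest to *Il2rg*. Some genes under this rule are not reported here. *Cxcr5*, *Klrd1*, *Ncr1*, *Satb1*, *Ccr7*, *Cd3e*, *Cd28*, *Cd4*, *Icos*, *Tox2*, *Foxp3*, *Tnfrsf18*, *Ctla4*, *Ptpn2*, *Stat4*, *Ebi3*, *Bcl6*, *Bcl3* and *Batf* were named after their values were seen. So were *Cd8a*, *Cd8b1*, *Gzma*, *Prf1* and *Eomes*.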

Additional observations from a re-analysis of the deposited data

How the results depend on the processing

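Of 190 alternative values of the 10 genes, 185 kept their direction and their side of the thresholds, 2 passed the thresholds and 3 changed sign. Library weights moved *Il6ra* to 1.14 and *Il9r* to 1.33, both past the thresholds (2 genes higher), and *Il2rb* to 0.0577, with 7 genes higher at an unadjusted p under 0.05, where 24.3% of all genes were. Trend removal left 1 gene higher and 2 lower (5.1% and 9.85% of all genes), also without overlap (8.86% and 12.4%), and turned *Il2rb* to *Il2rg* to -0.15. *Il21r* ranged from -0.0523 to 0.48 and *Il6ra* to *Il6st* from -0.46 to 0.25 when 1 library was left out. The genes higher at an unadjusted p under 0.05 ranged from 1 to 4 with 1 library left out, with 1 without replicate 1 labelled Bach2-cKO, where 4.14% of all genes were higher. *Bach2* passed the thresholds with DESeq2 (1.81) and with library weights (2.36). The pathway lists and the receptors outside both families had, between them and with *Il6* counted, 15 genes higher at an unadjusted p under 0.05, or 9 without those receptors and without *Il6*. The 3 of them past the thresholds as higher with DESeq2 were all from the list of receptors outside both families, against 0.292% of all genes. *Il12rb1*, 1 of the 3, was placed in that list, although *Il12rb2* was counted with the gp130 family. With library weights 16 passed as higher and 6 as lower, and 32 and 11 were at an unadjusted p under 0.05, again with *Il6* counted. Without genes that reached the filter through 1 group alone, the pathway lists had 10 past the thresholds as higher and 5 as lower in that fit (4.91% and 4.99% of all genes) and 23 and 10 at an unadjusted p under 0.05 (24.2% and 22.8%). The 15, *Il6* included, ranged from 7 to 18 with 1 library left out, at 9 without replicate 1 and 7 without replicate 2 labelled Bach2-cKO, where 4.14% and 4.74% of all genes were higher. Signs also turned for *Jak2* (-0.17 with DESeq2, -0.15 with edgeR, -0.10 with trend removal or 0.02 relative to the shift of all genes there, -0.14 with library weights, and from -0.14 to 0.36 with 1 library left out), *Il4ra* (-0.20 with trend removal, or -0.08 relative to that shift) and *Myc* (0.25 with library weights). With 1 library left out, *Il12rb2* ranged from -1.08 to 0.57 (0.40, 0.28 and 0.57 where it turned), *Il15* from -2.88 to 0.00956 and *Lifr* from -1.25 to 0.94 (0.94, 0.45 and 0.43 where it turned). The replicate block left 0 of the 10 genes past the thresholds, with *Il2rg* at -0.88 (limma adjusted p = 0.219). Same-numbered libraries deviated with correlations of -0.07, 0.12 and -0.04, and differently numbered ones with correlations from -0.15 to 0.12. With so few libraries these values cannot decide whether the numbers pair the samples, which the sources used here do not give. No cause of these differences was tested. With 1 library left out, limma pools the spread over both groups.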

Other observations

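Receptors outside both families were measured as a list of 16 cytokine receptors, of which 14 were tested, with a median log2 fold change of 0.63 against 0.08 over all genes tested. None passed the thresholds in limma, and 5 were higher and none lower at an unadjusted p under 0.05, against 10.1% and 10.2% of all genes tested. The 5 became 3 without replicate 1 and 2 without replicate 2 labelled Bach2-cKO, and 3 with no variance trend. In those fits 4.14%, 4.74% and 9.05% of all genes were higher. *Il17rb*, a chain of the IL-25 receptor, was at 32.3, 33.7 and 18.7 normalized counts in WT replicates 1, 2 and 3, and at 85.7, 231 and 145 in replicates 1, 2 and 3 labelled Bach2-cKO. The groups did not overlap, and the log2 fold change was 2.34 (limma adjusted p = 0.141). *Il12rb1*, which the receptors for IL-12 and IL-23 share, averaged 37.1 ± 15.9 normalized counts across the WT libraries and 138 ± 37.3 across those labelled Bach2-cKO (SD, n = 3), again without overlap (log2 fold change 1.92, limma adjusted p = 0.141). It was placed in this list, although *Il12rb2* was counted with the gp130 family. *Il1rl1*, the IL-33 receptor, was at 82.8, 11.2 and 44.7 normalized counts across the WT libraries and at 171, 275 and 71.6 in those labelled Bach2-cKO, with overlap (log2 fold change 2.07, limma adjusted p = 0.179, and 1.29 without WT replicate 2). On the reads of 5 libraries, which leave out WT replicate 1, the highest WT library for *Il12rb1* and *Il1rl1*, the tests differed. DESeq2 gave *Il17rb*, *Il12rb1* and *Il1rl1* past the thresholds, at log2 fold changes of 2.54, 2.20 and 2.59, and edgeR gave none of them, with adjusted p of 0.148, 0.148 and 0.151.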
